A study of Mus musculus with 12 samples.

Results

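The transcripts described here are 9 liver genes that carry a signal from glucagon through cyclic AMP (cAMP) to gene expression: Gcgr, Prkaca, Prkacb, Prkar1a, Prkar2a, Crtc2, Creb1, Creb3l3 and Sik1. They were chosen by symbol, for their roles in this pathway and not by a threshold on their values. Earlier results of these data were known when they were chosen. All 9 were found among the 23420 gene symbols in each deposited table. Transcripts were counted with the Lexogen QuantSeq 3′ mRNA method, which gives 1 tag near the 3′ end of each captured transcript. The 12 livers fell into 4 groups of 3 mice: wild type (WT) females, WT males, Siah2 knockout (KO) females and Siah2 KO males. The comparisons asked how loss of Siah2, which encodes a RING-type ubiquitin ligase, altered liver transcripts in each sex.

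All mice were on the C57BL/6 background, about 20 weeks old, and were sampled at ZT10, that is 10 h after lights on. The Siah2-/- mice were constitutive knockouts. WT and KO animals came from related homozygous lines founded by crossing heterozygotes, so genotype and line cannot be told apart. The sample labels describe RNA pooled from 3 livers, while the study's methods describe individual livers. Each library carries the number of 1 mouse and was taken here as 1 animal, and p-values measure only the spread between these libraries.

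In the liver, glucagon binds the receptor GCGR, which couples to a stimulatory G protein and adenylyl cyclase. The cAMP that forms releases the catalytic subunits of protein kinase A (PKA) from its regulatory subunits, and PKA then phosphorylates the transcription factor CREB. CRTC2 is a coactivator that binds CREB, and salt-inducible kinases such as SIK1 hold it in the cytoplasm by phosphorylating it. The pathway is best known in this tissue for switching on gluconeogenic genes during fasting. CREBH, the product of Creb3l3, is a liver-enriched member of the wider CREB family that controls lipid and acute phase genes.

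Total counts ran from 1293688 to 4056144 per library. Siah2 itself stood at 17.0, 12.3 and 11.5 CPM (counts per 1000000 counts) in WT females, 10.0, 12.5 and 9.63 CPM in KO females, 16.8, 27.1 and 21.4 CPM in WT males and 9.42, 17.4 and 15.0 CPM in KO males, with overlapping ranges in both sexes. The position of these 3′ tags relative to the deleted part, not given in the sources used here, leaves Siah2 unable to check the labels. The hepatocyte markers Alb, Ttr, Apoa1 and Cps1 summed to between 19745 and 36721 CPM. The 4 hemoglobin symbols on the red blood cell list were at 0 in all 12 libraries, so that list gives no measure of blood in these livers. The library of WT female 1091 stood apart: it differed from those of the other WT females by a chi-square of 42.0 and 45.0 per degree of freedom, against 6.71 to 21.8 for the other pairs of replicates. Results that rest on it are given with and without it.

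The cAMP response element (CRE), the DNA sequence that CREB binds, is the palindrome TGACGTCA, and its half-site reads TGACG on one strand and CGTCA on the other. Both were searched in the RefSeq promoter windows (build GRCm38.p6, 250 bases before to 50 bases after each annotated start). Of the 9 genes 7 were matched, with 16 windows in all. The palindrome was found in 1.79% of all 32851 windows of the same length and a half-site in 20.8%. Prkaca is shown because most results below turn on it, Prkacb because it encodes the other catalytic subunit, and Prkar1a because it alone of the matched genes held the palindrome. Half-sites are in capitals, and all 3 windows are read 5′ to 3′ on the strand of the gene. The Prkaca window is chr8:83972728-83973027 (plus strand), that of Prkacb is chr3:146812897-146813196 (minus strand) and that of Prkar1a is chr11:109650699-109650998 (plus strand).
Prkaca: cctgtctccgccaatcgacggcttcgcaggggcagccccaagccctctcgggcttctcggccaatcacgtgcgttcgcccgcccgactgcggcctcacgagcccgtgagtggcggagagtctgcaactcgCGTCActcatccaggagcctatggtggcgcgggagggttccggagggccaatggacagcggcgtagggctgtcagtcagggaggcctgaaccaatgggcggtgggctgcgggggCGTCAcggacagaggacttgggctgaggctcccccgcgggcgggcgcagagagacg
Prkacb: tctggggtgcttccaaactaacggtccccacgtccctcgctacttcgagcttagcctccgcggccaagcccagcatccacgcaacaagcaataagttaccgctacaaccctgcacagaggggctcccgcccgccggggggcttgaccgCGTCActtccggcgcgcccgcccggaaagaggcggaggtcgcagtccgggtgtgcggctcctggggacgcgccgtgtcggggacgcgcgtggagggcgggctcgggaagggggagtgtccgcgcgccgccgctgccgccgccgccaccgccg
Prkar1a: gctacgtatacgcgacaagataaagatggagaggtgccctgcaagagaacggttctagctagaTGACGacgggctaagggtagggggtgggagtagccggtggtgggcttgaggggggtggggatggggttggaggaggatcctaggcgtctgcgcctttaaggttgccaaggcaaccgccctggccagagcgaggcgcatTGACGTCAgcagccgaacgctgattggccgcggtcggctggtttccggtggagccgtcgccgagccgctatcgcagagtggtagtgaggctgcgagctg
Prkaca held half-sites that began 120 and 6 bases before the annotated start. Prkacb held 1, which began 102 bases before it, and the Prkar1a palindrome spanned positions -49 to -42. The other windows of Prkaca and Prkacb held neither sequence. Single half-sites also lay in windows of Prkar2a, 4 bases before the start, and of Creb3l3, 239 bases before a start inside the gene. The Creb3l3 window at the 5′ end of the gene (chr10:81098823-81099122) held none, nor did the windows of Gcgr and Creb1. In all, 7 of the 16 windows and 5 of the 7 genes held a half-site, against 20.8% of all windows and 23.0% of all genes. These matches describe the printed letters and are not evidence of binding.

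Prkaca (chr8:83972978-83996444), which encodes the alpha catalytic subunit of PKA, was lower in KO than in WT females, in every mouse, while the male groups overlapped. Gene positions here and below are those of RefSeq on GRCm38.p6. Its level in WT females was 149, 100.2 and 75.5 CPM (mean 108 ± 37.3, SD, n = 3), and in KO females it was 52.0, 57.1 and 45.1 CPM (51.4 ± 5.98). Every KO female lay below every WT female. In WT males Prkaca stood at 78.0, 61.8 and 67.8 CPM (69.2 ± 8.17) and in KO males at 107, 75.5 and 95.6 CPM (92.7 ± 16.0). The male groups overlapped, since the lowest KO male lay below the highest WT male. Ordered by mean, the groups ran from KO females through WT males and KO males to WT females. Of neighbours in this order, only the KO females and WT males had ranges that did not meet. In bulk tissue fewer cells that express a gene and less RNA per cell cannot be told apart, for this gene or any other here.

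**Figure D1:**
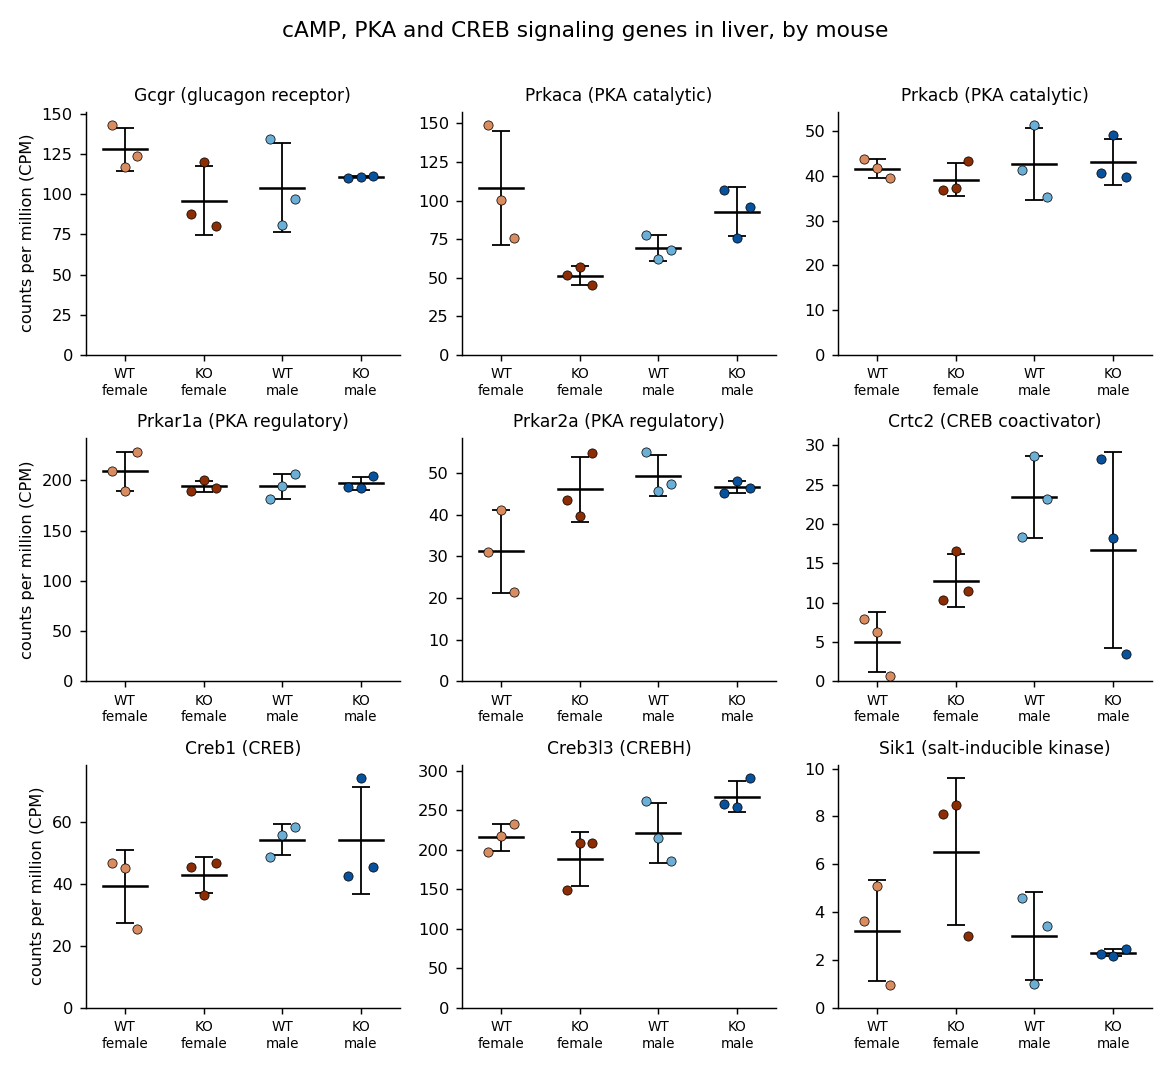
CPM of the 9 genes in each of the 12 mice (points), with the group mean (horizontal bar) and SD (vertical bar, n = 3) for WT and KO females and males. Each panel has its own axis starting at 0. KO females have the 3 lowest Prkaca values, WT females have the lowest group means of Prkar2a, Crtc2 and Creb1, and most other groups overlap.

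The difference of Prkaca between KO and WT females was -1.08 on the log2 scale (SE 0.28, 95% interval -1.71 to -0.45). It did not pass edgeR's quasi-likelihood test after Benjamini-Hochberg adjustment over all genes (adjusted p = 0.123) but did pass by DESeq2 (adjusted p = 0.0288). That DESeq2 call was lost when any of WT females 1089 and 1090 or the 3 KO females was left out, with adjusted p from 0.0726 to 0.299. Without WT female 1091 the edgeR difference was -1.27 (adjusted p = 0.00702). In males the difference of Prkaca was 0.42 in the opposite direction (SE 0.18, 95% interval 0.03 to 0.81), which edgeR did not call (adjusted p = 0.9999).

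The difference between the sexes in the effect of genotype on Prkaca was tested directly. The genotype effect on the log2 scale was lower by 1.49 in females than in males (-1.49, SE 0.34, 95% interval -2.22 to -0.77), which ranked 60 among the 9806 genes tested (edgeR, adjusted p = 0.0786). DESeq2 gave -1.49 with an adjusted p of 0.00538, and this call was kept with each of the 12 mice left out in turn, with adjusted p no higher than 0.0393. Without WT female 1091 the edgeR value was -1.69 (adjusted p = 0.00463). With the sexes combined Prkaca differed by -0.31 (SE 0.25, adjusted p = 0.888 by edgeR).

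Between the sexes, Prkaca was lower in KO females than in KO males by all 3 mice against all 3. The log2 difference was -0.84 (SE 0.18, 95% interval -1.22 to -0.46), so that females had 0.559 of the male level. This passed edgeR's quasi-likelihood test (adjusted p = 0.00763) and DESeq2 (adjusted p = 0.00236). The edgeR call held with each of the 6 mice left out (adjusted p from 0.0059 to 0.0412) and was lost when all 4 groups shared 1 estimate of the spread (adjusted p = 0.0662). The DESeq2 call was lost without KO male 1075 (adjusted p = 0.0542). In WT mice the same contrast ran the other way, at 0.67 (SE 0.28, adjusted p = 0.282 by edgeR), and with 1 mouse left out it ran from 0.35 (adjusted p = 0.67, without WT female 1089) to 0.86 (adjusted p = 0.0371, without WT female 1091).

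Prkacb (chr3:146729579-146812946), the gene of the beta catalytic subunit, stood at 43.7, 41.7 and 39.5 CPM in WT females, 36.8, 37.2 and 43.3 CPM in KO females, 41.3, 51.3 and 35.3 CPM in WT males and 40.7, 49.0 and 39.7 CPM in KO males. The 4 groups overlapped throughout, with means from 39.1 to 43.1 CPM. In females its difference was -0.11 (SE 0.22, 95% interval -0.60 to 0.38, adjusted p = 0.866 by edgeR). This interval does not reach the Prkaca value but overlaps the Prkaca interval. The fold changes of Prkaca and Prkacb were not tested against each other.

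Prkar1a (chr11:109649023-109669663) encodes a regulatory subunit, which holds the catalytic subunits inactive. It stood at 209, 189 and 228 CPM in WT females, 189.7, 200.3 and 192 CPM in KO females, 181, 195 and 206 CPM in WT males and 193, 193 and 205 CPM in KO males. All 4 groups overlapped, and the difference in females was -0.12 (SE 0.21, 95% interval -0.58 to 0.34, adjusted p = 0.834 by edgeR).

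Prkar2a (chr9:108692143-108750444), which encodes the type II alpha regulatory subunit, had its lowest mean in WT females, at 31.0, 41.1 and 21.3 CPM (31.2 ± 9.89). The KO females had 43.6, 39.8 and 54.8 CPM, the WT males 55.0, 45.7 and 47.3 CPM and the KO males 45.2, 48.2 and 46.3 CPM. The WT female and KO female ranges overlapped by 1 mouse on each side, while every WT female lay below every WT male. None of these differences passed edgeR's test. They were 0.54 for KO against WT females (SE 0.29, adjusted p = 0.401), -0.09 in males (SE 0.18, adjusted p = 0.9999), 0.63 for the difference between the sexes (SE 0.33, adjusted p = 0.423) and -0.63 for WT females against WT males (SE 0.28, adjusted p = 0.314). Without WT female 1091 the difference was 0.33 in females (adjusted p = 0.377) and -0.44 between WT females and males (adjusted p = 0.252).

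Because both kinds of subunit are counted in the same library, their ratio does not depend on the library total. It is a ratio of counts, not of molecules, and is read here only between groups. Prkaca took 77.3%, 70.6% and 65.7% of the Prkaca and Prkacb counts in WT females and 58.5%, 60.5% and 51.0% in KO females, so that the groups did not overlap. The share was 65.4%, 54.7% and 65.8% in WT males and 72.4%, 60.6% and 70.7% in KO males, which overlapped.

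Catalytic counts per 100 regulatory counts were 80.0, 61.6 and 46.1 in WT females and 38.1, 39.3 and 35.9 in KO females. They were 50.5, 47.1 and 40.6 in WT males and 61.9, 51.7 and 53.9 in KO males. Genotype thus separated the mice within each sex, downward by 24.9 from 62.6 ± 17.0 in females and upward by 9.78 from 46.1 ± 5.02 in males (SD, n = 3). In males the gap was narrow, from 50.5 in WT male 1055 to 51.7 in KO male 1076. Of all genes tested, 23.3% separated the female groups in CPM and 8.87% the male groups. Prkaca gave at least 51.0% of the catalytic counts in every mouse, so this ratio is not independent of its level. In an exact two-sided permutation test the female and the male difference each gave p = 0.1, the smallest that 3 mice against 3 allow. The Benjamini-Hochberg value was 0.2 for each, over the 12 such tests made of 3 ratios. The female difference was -33.1 without WT female 1091 and -16.1 without WT female 1089. Prkar2a took 12.9%, 17.8% and 8.56% of the Prkar1a and Prkar2a counts in WT females, below all 3 WT males at 23.3%, 19.0% and 18.7% (exact permutation p = 0.1, Benjamini-Hochberg value 0.2). That difference was -7.23 percentage points, and -4.96 without WT female 1091. In KO females Prkar2a took 18.7%, 16.6% and 22.2%.

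**Figure D2:**
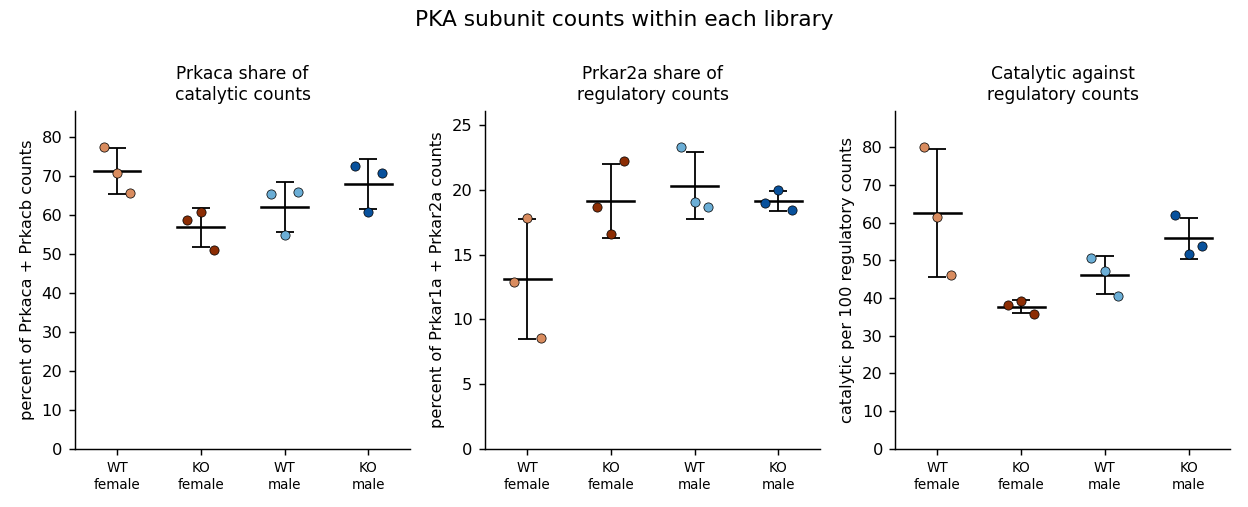
PKA subunit counts within each library: Prkaca as a percent of Prkaca and Prkacb counts, Prkar2a as a percent of Prkar1a and Prkar2a counts, and catalytic counts per 100 regulatory counts, with group mean and SD (n = 3). In the right panel KO females (35.9 to 39.3) lie below WT females (46.1 to 80.0), and KO males (51.7 to 61.9) lie above WT males (40.6 to 50.5).

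Gcgr (chr11:120529185-120538989), the glucagon receptor gene at the head of the pathway, stood at 143, 117 and 124 CPM in WT females (128 ± 13.3) and at 87.9, 120.4 and 80.1 CPM in KO females (96.1 ± 21.4). The groups overlapped through 1 KO female. WT males had 135, 80.9 and 97.2 CPM and KO males 110.5, 111 and 111 CPM. The Gcgr difference was -0.42 in females (SE 0.24, adjusted p = 0.431), 0.09 in males (SE 0.19, adjusted p = 0.9999) and -0.51 for the difference between the sexes (SE 0.31, adjusted p = 0.503), all by edgeR. Between the sexes it was 0.33 in WT mice (SE 0.25, adjusted p = 0.575) and -0.20 in KO mice (SE 0.17, adjusted p = 0.522). None of the 5 passed. The male value changed sign, to -0.036, without WT male 1086.

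Crtc2 (chr3:90253858-90264125), the gene of the CREB coactivator, differed widely between mice. It stood at 7.94, 6.30 and 0.637 CPM in WT females, the last from 2 counts in mouse 1091, and at 10.3, 16.6 and 11.4 CPM in KO females. WT males had 18.3, 28.7 and 23.2 CPM and KO males 28.3, 18.2 and 3.45 CPM, the last from 14 counts in mouse 1081. Every WT female lay below every KO female and below every WT male. KO males spanned nearly the whole range of the other groups.

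For Crtc2 the WT females against WT males gave -2.23 log2 units (SE 0.57, 95% interval -3.49 to -0.97), or 0.213 of the male level. This missed the threshold by edgeR (adjusted p = 0.0966) and passed by DESeq2 (adjusted p = 0.00657). The DESeq2 call was lost without WT male 1086 or 1087. Leaving out WT female 1091, the mouse with 2 counts, made the edgeR difference smaller, at -1.73, and moved it past the threshold (adjusted p = 0.009). Within females the KO against WT difference of Crtc2 was 1.36 (SE 0.60, adjusted p = 0.311 by edgeR), and 0.85 without mouse 1091 (adjusted p = 0.143). It was -0.57 in males (SE 0.49, adjusted p = 0.9999), but -0.018 without KO male 1081 and -1.24 without KO male 1075. The difference between the sexes was 1.91 (SE 0.88, adjusted p = 0.342), or 1.42 without mouse 1091 and 1.38 without KO male 1081. Without the filter on low counts edgeR called Crtc2 in females (1.37, adjusted p = 0.0456) and for the difference between the sexes (1.90, adjusted p = 0.0147). In KO mice, female against male gave -0.33 (SE 0.51, adjusted p = 0.732), which was 0.34 without KO male 1075 and -0.87 without KO male 1081.

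Creb1 (chr1:64532794-64604548), which encodes CREB itself, stood at 46.9, 45.3 and 25.5 CPM in WT females, 45.5, 36.5 and 47.0 CPM in KO females, 48.9, 55.8 and 58.5 CPM in WT males and 42.6, 74.2 and 45.6 CPM in KO males. The lowest value was again that of mouse 1091. All WT females lay below all WT males, at -0.45 (SE 0.27, adjusted p = 0.473 by edgeR) and at -0.24 without mouse 1091. The other groups that were compared overlapped. KO against WT females gave 0.12 (SE 0.28, 95% interval -0.51 to 0.74, adjusted p = 0.891), which was -0.11 without mouse 1091, and KO females against KO males gave -0.32 (SE 0.23, adjusted p = 0.403).

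Creb3l3 (chr10:81084329-81098872), the CREBH gene, stood at 198, 218 and 232 CPM in WT females, 149, 209 and 208 CPM in KO females, 261, 216 and 186 CPM in WT males and 258, 254 and 291 CPM in KO males. Every KO female lay below every KO male. Their difference was -0.50 (SE 0.16, 95% interval -0.85 to -0.15), which edgeR placed at an adjusted p of 0.0608 and DESeq2 at 0.043. With 1 mouse left out, the DESeq2 adjusted p ran from 0.026 to 0.244 and passed only without KO female 1104 or 1105. KO against WT gave -0.21 in females (SE 0.23, adjusted p = 0.721), 0.27 in males (SE 0.16, adjusted p = 0.9999) and -0.48 for the difference between the sexes (SE 0.28, adjusted p = 0.48), all by edgeR.

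Sik1 (chr17:31844248-31855804), a kinase gene that is itself induced by CREB, was close to the detection limit, with 2 to 30 counts per library. It stood at 3.61, 5.10 and 0.956 CPM in WT females, 8.12, 8.47 and 3.01 CPM in KO females, 4.59, 1.01 and 3.40 CPM in WT males and 2.26, 2.17 and 2.46 CPM in KO males. The 2 highest libraries were KO females, and the third KO female overlapped the WT females. The difference in females was 1.05 (SE 0.59, 95% interval -0.26 to 2.35, adjusted p = 0.434 by edgeR), or 0.64 without WT female 1091, and that between the sexes was 1.38 (SE 0.88, adjusted p = 0.527). In males, in KO mice and with the sexes combined Sik1 did not pass the filter on low counts and was not tested by edgeR. Every KO female lay above every KO male, at a DESeq2 difference of 1.53 that was not called (adjusted p = 0.168). Without the filter edgeR called Sik1 in KO females against KO males (1.53, adjusted p = 0.0405). With KO female 1105 left out, Sik1 passed the filter only through the remaining KO females, where it was high (30 and 23 counts). The edgeR call that followed (1.82, adjusted p = 0.0218) is therefore no further support. In the RefSeq annotation Sik1 overlaps the noncoding gene Gm41564, and Prkacb, Prkar1a and Prkar2a also overlap other genes. Whether the counting used strand was not stated, so reads of such pairs may be shared.

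**Figure D3:**
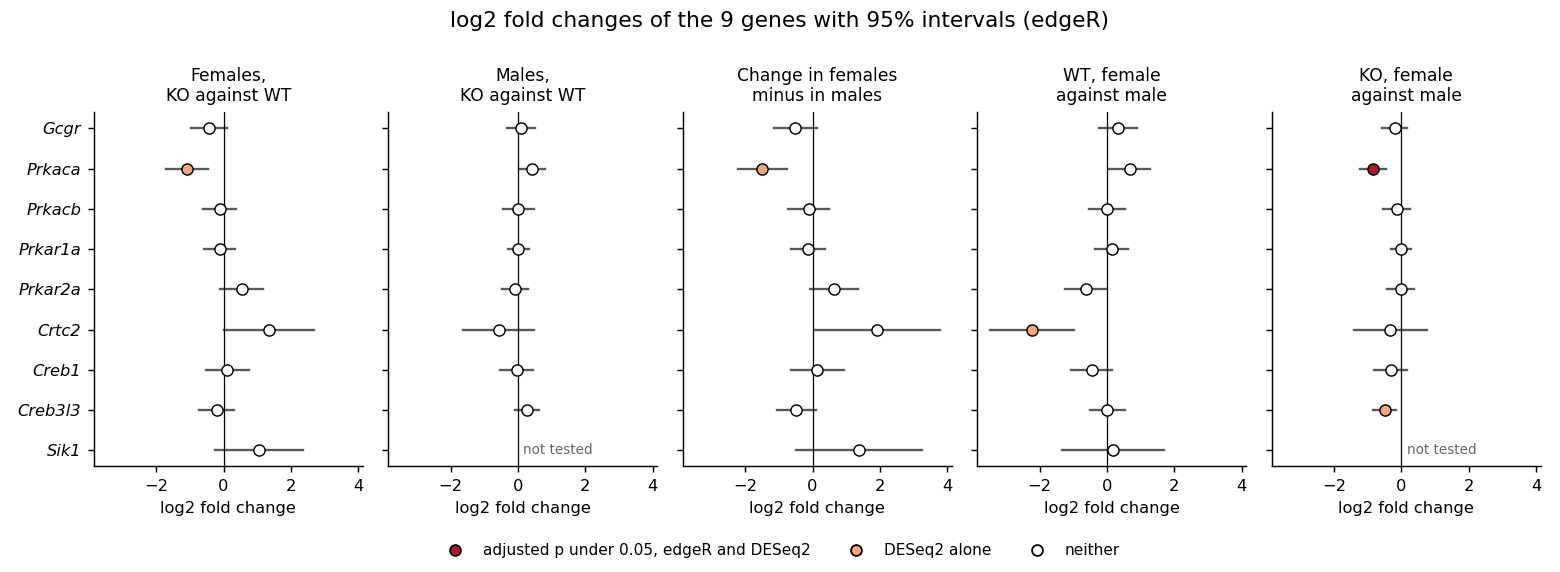
log2 fold changes of the 9 genes in 5 comparisons (edgeR, points) with 95% intervals (lines), coloured by adjusted p: dark for under 0.05 by edgeR and DESeq2, light for DESeq2 alone, open for neither. The Prkaca point lies at -1.08 in females and 0.42 in males, and it is the only dark point, for KO females against KO males (-0.84). Sik1 was not tested in males or among KO mice.

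Counted over the list, the genes did not stand apart from the transcriptome in most comparisons. In females edgeR called 0 of the 9 and 0% of the 9465 genes tested. At an unadjusted p under 0.05 it found 2 of the 9 against 15.6%, and 2 of the 9 had groups that did not overlap against 23.3%. DESeq2 called 1, Prkaca, against 3.8%. In males edgeR and DESeq2 each called 0, of 8 genes tested by edgeR, against 0% and 0.037%, and 1 of the 8 had an unadjusted p under 0.05 against 4.05%. No member separated the male groups, as 8.87% of all genes did. For the difference between the sexes edgeR called 0 of 9 against 0.255% (unadjusted 2, against 14.1%) and DESeq2 called 1, again Prkaca, against 4.03%.

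For WT females against WT males edgeR called 0 of 9 against 1.39% (unadjusted 3, against 15.2%), and DESeq2 called 1, Crtc2, against 3.68%. In 3 of the 9, Prkar2a, Crtc2 and Creb1, all WT females lay below all WT males, as in 11.2% of all genes tested. For KO females against KO males edgeR called 1 of the 8 tested against 11.5% (unadjusted 2, against 26.1%), and DESeq2 called 2, Prkaca and Creb3l3, against 8.2%. Those 2 lay lower in all KO females without overlap, as in 16% of all genes. All 8 tested genes had differences below 0 there, from -0.84 to -0.017 with a median of -0.26, beside a median of -0.0016 over all 9102 genes. The ninth gene, Sik1, which the filter removed, had a difference above 0 (1.53 by DESeq2). With the sexes combined edgeR and DESeq2 each called 0, against 0.0111% and 0.0056%, and none of the 8 tested had an unadjusted p under 0.05 against 5.65%, nor did any group separate, as 0.2% of all genes did.

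The 81 other genes of the pathway were set in 8 lists, and 49 to 55 of them passed the filter on low counts, depending on the comparison. In females edgeR called 0 of 53 (6 at an unadjusted p under 0.05, against 15.6% of all genes) and in males 0 of 50 (2 unadjusted, against 4.05%). For the difference between the sexes it called 0 of 55 (5 unadjusted, against 14.1%). In WT females against WT males it called 0 of 53 (10 unadjusted, against 15.2%). DESeq2 called 2 in females, against 3.8% of all genes. It called 0 in the other 3 comparisons, against 0.037%, 4.03% and 3.68% in the same order. The median log2 difference of the lists was 0.026 in females and -0.00088 in males, beside -0.035 and -0.011 over all genes.

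The 2 genes that DESeq2 called in females lie at the output end of the pathway. Pck1, the gluconeogenic enzyme gene that CREB induces, stood at 2836, 7972 and 1879 CPM in WT females and 12709, 8974 and 16789 CPM in KO females. The groups did not overlap, and the difference was 1.59 (SE 0.51, adjusted p 0.19 with edgeR, 0.0176 with DESeq2), or 1.25 by edgeR without WT female 1091 (adjusted p = 0.0702). In males Pck1 overlapped between genotypes, with a difference of 0.25 (SE 0.25, adjusted p = 0.9999), and the difference between the sexes was 1.34 (SE 0.62, adjusted p = 0.346). Crp, an acute phase gene bound by CREBH, stood at 365, 312 and 547 CPM in WT females and 243, 170 and 167 CPM in KO females, again without overlap. Its difference was -1.09 (SE 0.28, adjusted p 0.123 with edgeR, 0.0241 with DESeq2), or -0.80 by edgeR without WT female 1091 (adjusted p = 0.0328). This compares with -0.13 in males (SE 0.16, adjusted p = 0.9999) and -0.95 for the difference between the sexes (SE 0.33, adjusted p = 0.194). Stk11, which encodes LKB1, the kinase that activates the salt-inducible kinases, stood at 16.2, 15.6 and 23.3 CPM in WT females and 33.6, 30.6 and 30.7 CPM in KO females. Its difference was 0.77 (SE 0.26), and neither edgeR (adjusted p = 0.199) nor DESeq2 (adjusted p = 0.231) called it. Without WT female 1091 it was 0.99 and passed by edgeR (adjusted p = 0.0199).

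In KO females against KO males edgeR called 10 of the 49 other pathway genes tested, against 11.5% of all genes: 7 were higher, against 5.69%, and 3 lower, against 5.78%. Lower in females were Gnas at -0.72 (SE 0.15, adjusted p = 0.00525), which encodes the stimulatory G protein alpha subunit, Gnb2 at -1.12 (SE 0.19, adjusted p = 0.00121), a G protein beta subunit, and the CREB coactivator Crebbp at -0.68 (SE 0.19, adjusted p = 0.0324). Gnas stood at 136, 159 and 141 CPM in KO females and 252, 238 and 233 CPM in KO males. It was lower in WT females too, at 182, 214 and 31.2 CPM, against 226, 234 and 250 CPM in WT males. Higher in females were the PKA inhibitor gene Pkig at 0.69 (SE 0.20, adjusted p = 0.0364), the cAMP phosphodiesterase gene Pde4b at 1.17 (SE 0.34, adjusted p = 0.0412) and the CREB target Ppargc1a at 0.85 (SE 0.20, adjusted p = 0.0153). Of the 8 CREBH target genes 7 were tested, and 4 were called higher in females: Apoa4 at 1.19 (adjusted p = 0.0297), Apoa5 at 0.83 (adjusted p = 0.00342), Hamp at 0.69 (adjusted p = 0.0132) and Apcs at 0.88 (adjusted p = 0.0195). The CREBH list leaned the same way in WT mice, where edgeR called 0. Its median difference was 0.59 in WT and 0.69 in KO mice, with 5 of the 7 above 0 in each. Ppargc1a did not follow, with means of 48.5 CPM in WT females and 52.6 CPM in WT males. The adjusted p-values are those of edgeR. DESeq2 called 8 of these 10, all but Pkig and Pde4b. With each of the 6 mice left out in turn, Gnas, Gnb2 and Apoa5 kept the edgeR call in all 6 fits, Ppargc1a and Hamp in 3, Crebbp, Apoa4 and Apcs in 2, Pde4b in 1 and Pkig in 0. Apoa4 was at 0.52 without KO female 1104 (adjusted p = 0.2). With all 4 groups in 1 fit none of the 10 was called by edgeR (adjusted p from 0.0624 to 0.383).

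**Figure D4:**
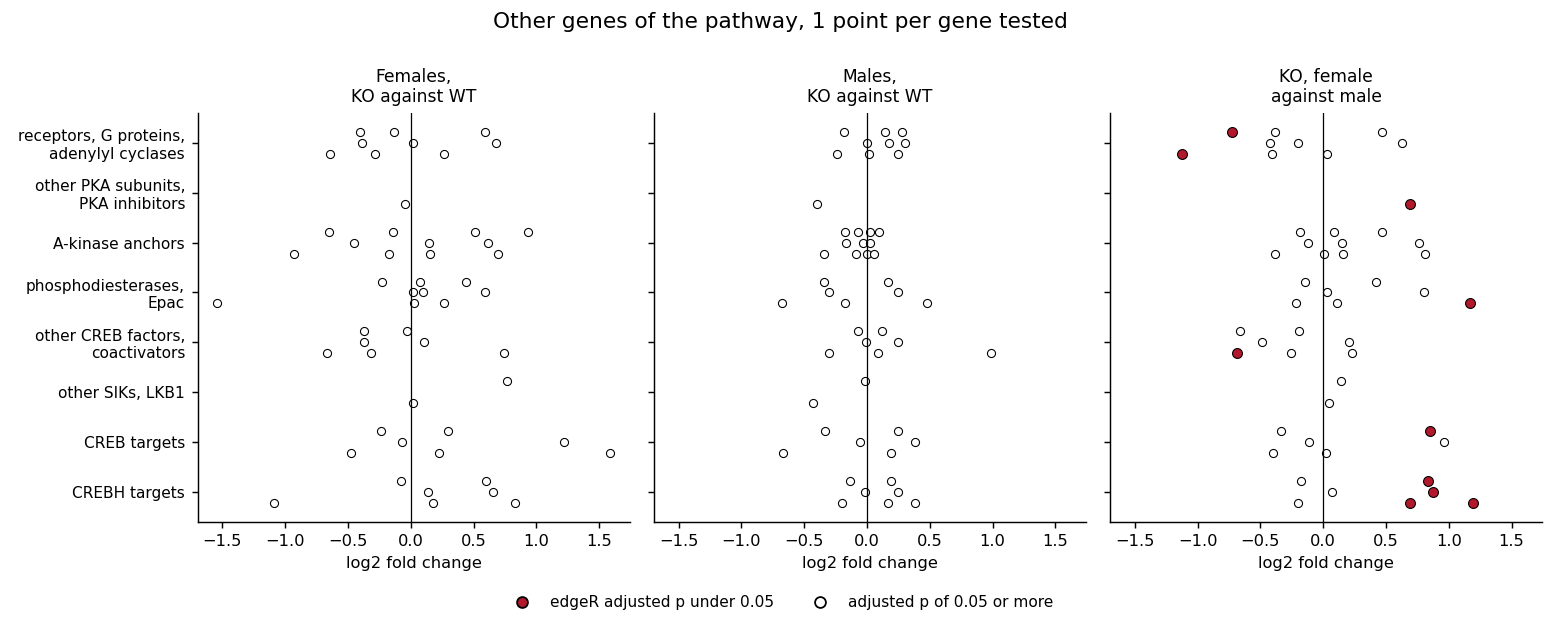
log2 fold changes (edgeR) of the other pathway genes tested, 1 point per gene, by list, for KO against WT in females and in males and for KO females against KO males. Filled points have an edgeR adjusted p under 0.05. There are 10 filled points among KO mice and none in the first 2 panels.

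Summed markers of several cell types differed by sex or genotype in the same libraries. All 5 Kupffer cell markers (Clec4f, Cd5l, Vsig4, Emr1 and Marco) were detected in each group, and their sum was 277 to 710 CPM in KO females, 80.3 to 169 CPM in KO males, 353 to 480 CPM in WT females and 59.4 to 515 CPM in WT males. The 4 endothelial markers summed to 170.5 to 196 CPM in KO females and 136 to 163 CPM in KO males, and the 4 hepatocyte markers to 23367 to 29999 CPM and 19745 to 22024 CPM, so that all 3 sums separated KO females from KO males. Single markers did not all follow the sums. Apoa1 was lower in every KO female (up to 2972 CPM) than in every KO male (from 2976 CPM). Stab2 had a lower mean in KO females (33.3 against 43.5 CPM). Differences lay above 0 for 3 of 4 hepatocyte, 3 of 4 endothelial and all 4 tested Kupffer cell markers. The part of these markers in the differences of Prkaca, Creb3l3 and Sik1 between KO females and KO males was not tested. Within females Prkaca differed by genotype without overlap. Of the fat cell list Adipoq and Plin1 were at 0 in all females, so the sum there was Fabp4 alone. It stood at 47.5 to 54.1 CPM in WT and 57.8 to 109.9 CPM in KO females, without overlap. The sums of the other cell types overlapped, for hepatocyte and stellate markers only through WT female 1091. Hepatocyte sums were 32648 and 36721 CPM in the other WT females, 24627 CPM in mouse 1091 and at most 29999 CPM in KO females. Stellate sums were 325 and 350 CPM, 172 CPM and at most 211 CPM in the same order. The part of these markers in the differences between KO and WT females was not tested. In males the sum of the 4 bile duct markers separated the genotypes. Every KO male (15.1 to 19.2 CPM) lay below every WT male (up to 39.7 CPM). This sum was mostly Spp1, which alone separated them (up to 18.2 CPM in KO and from 22.2 CPM in WT males). Krt19, Krt7 and Epcam had group means of at most 1.45 CPM in males. Only 1 of the 4 markers passed the filter on low counts there, so the sum does not show a shift shared by the 4. The 4 stellate cell markers ran from 130 to 349.9 CPM over all 12 libraries. Female and male counts came in separate tables, both of raw counts.

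The other lists held few differences. A-kinase anchoring proteins, which place PKA in the cell, had 11 genes tested in females and 10 among KO mice. In each edgeR called 0, against 0% and 11.5% of all genes, and found 1 at an unadjusted p under 0.05, against 15.6% and 26.1%. The most abundant, Akap9 and Akap1, had means of 119 and 103 CPM over the 12 mice. Of the phosphodiesterase and Epac list, Pde3b (111 CPM) and Rapgef4 (83.1 CPM) were the highest. Creb3 had a mean of 38.5 CPM, Tat 382 CPM and Sik3 19.1 CPM, and neither edgeR nor DESeq2 called any of these 7 in the 6 comparisons. Of the other PKA subunits and inhibitors only Pkig was tested, and Pkia, the next highest, had a mean of 1.08 CPM.

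The genes whose log2 CPM followed the members most closely over the 12 mice were sought among the 6704 genes that averaged 10 CPM or more. For Prkaca they were D930015E06Rik and Ggact (Pearson r = 0.94 and 0.93). For Crtc2 they were Gtpbp2 and Arhgef10l (r = 0.94 and 0.93), for Creb3l3 Acsl1 and Pafah2 (both r = 0.86) and for Gcgr Polr2e and Suv420h1 (r = 0.90 and 0.89). For Prkacb they were Msh3 and Herc1 (r = 0.94 and 0.86), for Prkar1a Parp1 and Fabp5 (r = 0.92 and 0.86), for Prkar2a R3hdm1 and Sod2 (r = 0.96 and 0.95), for Creb1 Nr2f2 and Snx18 (r = 0.92 for both) and for Sik1 Emc2 and Zfp330 (r = 0.91 and 0.90). Among the members Prkaca and Gcgr had r = 0.72 (Spearman rho 0.61), and Prkar1a and Prkar2a had r = -0.83 (rho -0.51). The latter pair leans on WT female 1091, which had the highest Prkar1a (228 CPM) and the lowest Prkar2a (21.3 CPM). Its correlation without that mouse was not computed. The Pearson values given are the most extreme of many over 12 libraries that share group and depth, and carry no test.

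The dependence of the leading results on single mice is plotted for Prkaca and Crtc2. For Prkaca in females the difference ranged from -1.27 to -0.79, the latter without WT female 1089, the mouse with the highest level. For Prkaca among KO mice it ranged from -0.96 to -0.74, and for Crtc2 among WT mice from -2.73 to -1.73.

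**Figure D5:**
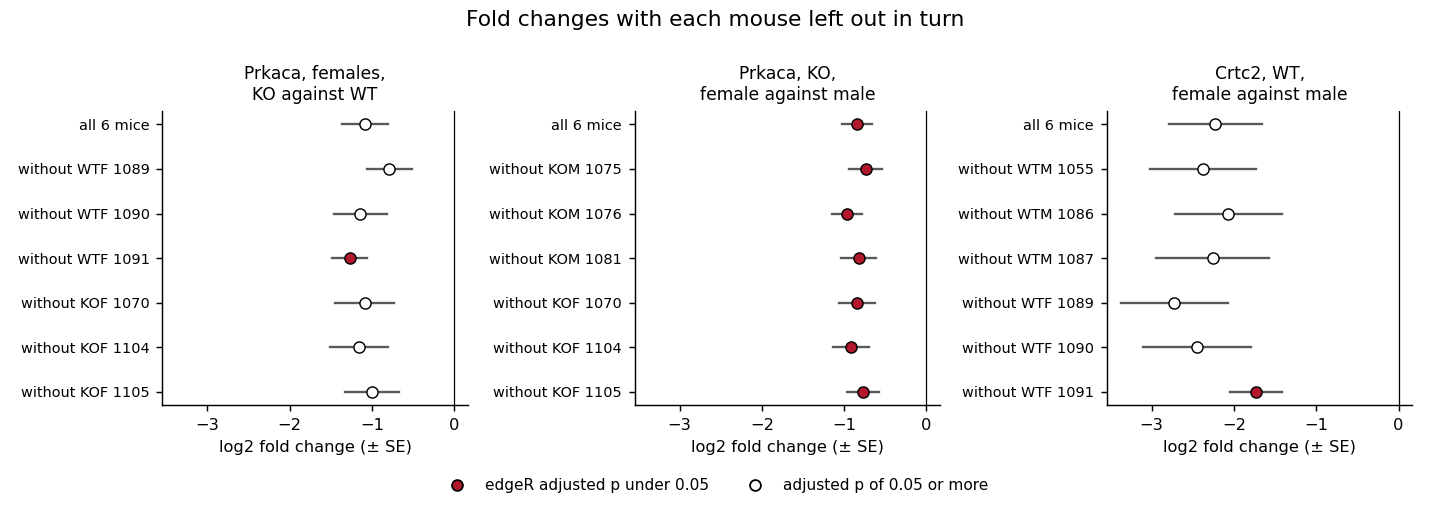
log2 fold changes (edgeR, points) with SE (lines) for all 6 mice and with each mouse left out, for Prkaca in females (KO against WT), Prkaca in KO mice and Crtc2 in WT mice (both female against male). Filled points have an adjusted p under 0.05: all 7 in the middle panel, and only the fit without WT female 1091 in the outer panels.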

How the data were processed

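Livers of 12 mice were profiled with QuantSeq 3′ mRNA libraries. On Illumina BaseSpace the authors trimmed reads, mapped them and made the raw read counts per gene that they deposited, 1 table for each sex. The submitters' processing notes name STAR, DESeq and mm10, with the annotation and strand setting not given in the sources used here. Groups and mice were taken from the sample titles. From the deposited counts CPM was computed with trimmed mean of M-values (TMM) scaling over the 9806 genes kept.

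Comparisons were fitted over all genes with edgeR 4.0.16 (filterByExpr, TMM, glmQLFTest, two-sided) in R 4.3.3 and adjusted by Benjamini-Hochberg, with a threshold of 0.05. Only the groups compared entered a fit. The difference between the sexes used all 4 groups. Fold changes are log2, so a difference of 1 is a factor of 2. DESeq2 1.42.0, limma 3.58.1 (voom, with and without library weights), RLE scaling, other filters, thinning, leaving out Rn45s, a fit of all groups and leaving out each mouse were alternatives. DESeq2 with each mouse left out was added after seeing the data. The steps were tested on simulated data.

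The members, the gene lists and the tests were chosen with earlier results of these data known. All 9 members are named. Of the other pathway genes, the 2 with the highest mean CPM in each list are named, and those with an adjusted p under 0.05 by edgeR or DESeq2 in any comparison. The 2 genes most correlated with each member are named as well. Total counts per library ran from 1293688 to 4056144, so that 1 count was worth 0.246 to 0.765 CPM.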

Additional observations from a re-analysis of the deposited data

Results flagged for a closer look

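The difference of Prkaca between KO and WT mice ran in opposite directions in females and males, and was flagged because DESeq2, though not edgeR, called that contrast. On the log2 scale the genotype effect in females less that in males was -1.49 (SE 0.34), tested as an interaction over the 12 mice. It passed the threshold by DESeq2 (adjusted p = 0.00538) and missed it by edgeR's quasi-likelihood test (adjusted p = 0.0786). All 3 KO females lay below all 3 WT females, whereas the male groups overlapped, with 2 of 3 KO males above every WT male. Crtc2 also separated the female groups and not the male groups, in the other direction, with a difference between the sexes of 1.91 that edgeR did not call (adjusted p = 0.342) except without the filter on low counts (1.90, adjusted p = 0.0147).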

How the results depend on the processing

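The number of members called depended on the tool and on WT female 1091. In females, where edgeR called 0, DESeq2, voom with library weights and the fit of all 4 groups each called 1, and no filter on low counts gave 2. For the difference between the sexes (0 by edgeR) DESeq2 and weighted voom called 1 and no filter gave 2. For WT females against WT males (0) DESeq2 and no filter gave 1 and weighted voom 2. For KO females against KO males (1) DESeq2, voom, weighted voom and no filter each gave 2, and the fit of all 4 groups gave 0. With each mouse left out the counts ran from 0 to 1 in females and for the difference, each reaching 1 without WT female 1091, from 0 to 2 in WT mice and from 1 to 3 in KO mice, the highest without KO female 1105. The 3 included Sik1, which passed the filter there only through the KO females. In males and with the sexes combined the count was 0 under every alternative run. The cause was not tested.

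Directions were reversed for values near 0 or with few counts: Creb1 in females at -0.11 by weighted voom (-0.11 to 0.26 with a mouse left out), Gcgr in males at -0.032 after thinning to the smallest library (-0.036 to 0.31), Pck1 in males (-0.047 to 0.48 with a mouse left out), and Crtc2 in KO females against KO males at 0.27 by voom and 0.34 by weighted voom (-0.87 to 0.34). Prkaca kept its direction under every alternative run in each of the 6 comparisons. No paired analysis was possible because the groups share no mouse numbers. With 2 to 30 counts per library, over the alternatives run Sik1 was called only in KO females against KO males, at 1.53 without the filter and 1.82 without KO female 1105. In the latter fit it passed the filter only through the group where it was high, so that call adds no support.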
